A study of Mus musculus with 16 samples.

Results

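Ch25h encodes cholesterol 25-hydroxylase, and the comparison described here asks what its loss did to hippocampal RNA in mice without a tau transgene. It sets the 4 CKO libraries against the 4 WT libraries, 8 of the 16 libraries in the series, chosen by their genotype labels. CKO mice carried the Ch25h knockout and no transgene. WT mice carried neither the knockout nor a transgene. The other 8 libraries, 4 TCKO and 4 T, came from the same cross and carried the PS19 transgene, which is human 1N4R tau with the P301S mutation under the PrP promoter. TCKO mice also lacked Ch25h, and T mice had it. They are used here for a second comparison of knockout with intact Ch25h, for the difference between both knockout effects, and in the fit itself, where all 16 libraries share the estimate of the spread between replicates. All mice were female, 40 weeks old by one label and 9.5 months old by another, and the right hippocampus was taken after perfusion with PBS. The labels do not give the part of Ch25h that was deleted, the litter of each mouse or the genetic background. They also do not say whether each library came from a separate mouse, and p-values reflect library-to-library spread alone, which may be technical.

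Cholesterol 25-hydroxylase adds a hydroxyl group to cholesterol and so makes 25-hydroxycholesterol, an oxysterol. Macrophages and microglia switch the gene on after interferon or Toll-like receptor signals. 25-hydroxycholesterol retains the SREBP transcription factors in the endoplasmic reticulum through Insig proteins, which lowers cholesterol synthesis, and it is a ligand of the liver X receptors, which drive sterol efflux. A further hydroxylation turns it into an attractant for immune cells that carry the receptor Gpr183. In the brain without disease the gene is expressed at a low level, mainly in microglia.

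Promoter sequences are shown for the genes that passed the test, Ch25h and Golga7b, and for 1 gene of each programme that the oxysterol or its inducers act on, Hmgcs1 for sterol synthesis and Ifit1 for the interferon response; Hmgcs1 and Ifit1 were chosen after values were seen. Each runs from 250 bases before to 50 bases after a RefSeq gene start on GRCm38.p6, 5′ to 3′ on the gene's strand. The Ch25h window is chr19:34475099-34475398 on the minus strand, that of Golga7b chr19:42247328-42247627 on the plus strand (the first of 2 starts in the table), that of Hmgcs1 chr13:119690101-119690400 on the plus strand and that of Ifit1 chr19:34640639-34640938 on the plus strand. Capitals mark a match, on either strand, to the sterol regulatory element core TCACNCCAC or to the core of the interferon-stimulated response element, given by name only, and the matches shown do not overlap each other.
Ch25h: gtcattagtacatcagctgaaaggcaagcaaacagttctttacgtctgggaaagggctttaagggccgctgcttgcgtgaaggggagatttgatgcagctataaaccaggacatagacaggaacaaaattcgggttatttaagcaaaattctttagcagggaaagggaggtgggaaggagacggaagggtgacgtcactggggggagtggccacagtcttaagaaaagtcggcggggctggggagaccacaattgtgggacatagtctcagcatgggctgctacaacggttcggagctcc
Golga7b: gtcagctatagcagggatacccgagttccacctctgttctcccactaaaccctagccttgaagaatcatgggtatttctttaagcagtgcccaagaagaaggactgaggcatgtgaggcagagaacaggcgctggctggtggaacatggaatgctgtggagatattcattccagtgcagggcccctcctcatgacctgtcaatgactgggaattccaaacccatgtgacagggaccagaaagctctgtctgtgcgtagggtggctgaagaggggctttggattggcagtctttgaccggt
Hmgcs1: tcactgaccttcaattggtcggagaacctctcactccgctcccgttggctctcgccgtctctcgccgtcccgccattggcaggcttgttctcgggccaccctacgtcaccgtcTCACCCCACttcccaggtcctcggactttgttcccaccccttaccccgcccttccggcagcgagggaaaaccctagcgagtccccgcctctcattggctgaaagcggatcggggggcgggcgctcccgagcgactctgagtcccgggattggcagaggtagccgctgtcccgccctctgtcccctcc
Ifit1: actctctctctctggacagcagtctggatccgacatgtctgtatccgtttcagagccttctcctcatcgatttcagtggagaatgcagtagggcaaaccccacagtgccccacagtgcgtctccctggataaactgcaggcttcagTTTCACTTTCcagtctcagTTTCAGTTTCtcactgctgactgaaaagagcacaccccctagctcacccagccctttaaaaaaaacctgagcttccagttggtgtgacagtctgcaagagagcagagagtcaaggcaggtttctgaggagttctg

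The sterol core was found in 1.24% of all 32851 promoters in the table and in 1 of the 19 promoters matched to cholesterol synthesis and uptake genes, that of Hmgcs1. The interferon core was found in 3.44% of all promoters and in 14 of the 22 promoters matched to interferon-stimulated genes. Neither string of letters was in the Ch25h or the Golga7b window.

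Ch25h transcripts were nearly gone in CKO hippocampus. The CKO libraries held 2, 0, 0 and 1 estimated reads of Ch25h, and the WT libraries held 18, 25, 20 and 40. The groups did not overlap, and the highest CKO library lay far under the lowest WT library. Scaled by library size, the ratio of the pooled reads, WT over CKO, was 25.6, with an exact 95% interval of 8.53 to 126 that covers counting error only. The fitted log2 fold change, CKO minus WT, was −4.53 ± 0.64 (SE, 95% interval −5.88 to −3.18; edgeR adjusted p = 0.0192). The gene was also scarce in WT hippocampus, at 0.581 to 1.41 counts per 1000000 reads (CPM), so this check of the labels rests on 103 WT reads and 3 CKO reads. In the tau transgenic libraries, TCKO held 0, 1, 1 and 0 reads and T held 300, 149, 154 and 133, a log2 difference of −8.03.

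Golga7b was the other gene that passed, and it was lower in CKO. Its product is an accessory protein of the palmitoyltransferase Zdhhc5. Its level was 43.6, 67.1, 38.0 and 59.1 CPM in the CKO libraries, against 179, 157, 154 and 202 CPM in the WT libraries. The highest CKO library, at 67.1 CPM, was far under the lowest WT library, at 154 CPM. The log2 fold change was −1.73 ± 0.24 (SE, 95% interval −2.24 to −1.23; edgeR adjusted p = 0.0192). In the transgenic libraries the level was 45.4, 53.6, 102 and 55.3 CPM in TCKO and 73.9, 119, 97.1 and 120 CPM in T, so TCKO replicate 4 lay among the T libraries. That difference was −0.68 on the log2 scale (edgeR adjusted p = 0.0663), and the difference between both knockout effects was 1.05 (adjusted p = 0.0893). The WT libraries were the highest of the 16 for this gene. Neither its paralog Golga7 nor Zdhhc5 was called. Golga7 averaged 118 CPM in CKO and 121 CPM in WT (−0.04 ± 0.11 on the log2 scale). Zdhhc5 averaged 15.8 CPM in CKO and 14.5 CPM in WT (0.12 ± 0.11).

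**Figure D1:**
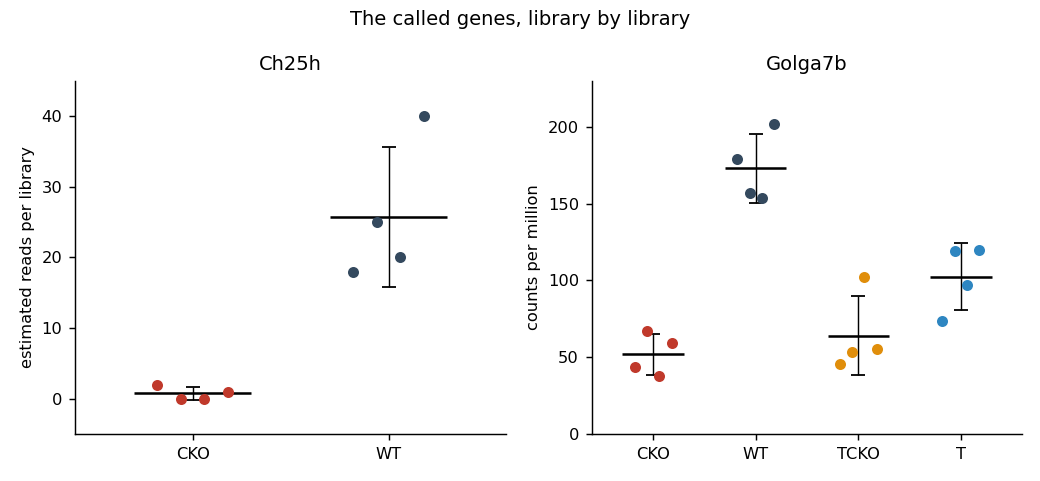
Estimated reads of Ch25h per library in CKO and WT (left) and CPM of Golga7b in CKO, WT, TCKO and T (right); points are libraries, bars the mean with the SD, n = 4 each. Ch25h lies at 0 to 2 reads in CKO and 18 to 40 in WT; for Golga7b the WT libraries lie at 154 to 202 CPM and TCKO replicate 4, at 102 CPM, lies among the T libraries.

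Of 18565 genes tested, these 2 made up 0.0108% at an edgeR adjusted p under 0.05, both lower in CKO; lower calls were likewise 0.0108%. No gene was called higher by edgeR. At an unadjusted p under 0.05 there were 2098 genes, or 11.3%, of which 1087 (5.86%) had positive and 1011 (5.45%) negative fold changes. DESeq2 called 110 genes (0.593%), 55 in each direction, while limma voom called 1 gene, Golga7b. The CKO and WT libraries did not overlap for 1662 genes, or 8.95%. The same edgeR model called 2388 genes (12.9%) for TCKO against T, and the difference between both knockout effects was called for 584 genes (3.15%). That last count was 375 without CKO replicate 1, 349 without CKO replicate 2, 308 without CKO replicate 4 and 334 without WT replicate 5. Both calls in CKO against WT depended on single libraries. Without CKO replicate 1, 4 or 5 or without WT replicate 5, edgeR called neither gene (adjusted p = 0.0546 to 0.132 for Golga7b and 0.0546 to 0.171 for Ch25h), and without CKO replicate 2 it called Golga7b but not Ch25h (adjusted p = 0.117). The fold changes kept their sign in each, between −1.88 and −1.61 for Golga7b and between −5.47 and −4.15 for Ch25h. With only the 8 CKO and WT libraries in the fit, Golga7b was called (adjusted p = 0.0353) and Ch25h was not (adjusted p = 0.0944).

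Ch25h and Golga7b lie on the same chromosome. Ch25h is at chr19:34473778-34475164 and Golga7b at chr19:42247574-42270348 on GRCm38, 7.77 Mb apart. Within 5 Mb of Ch25h, 62 genes were tested and 1, Ch25h itself, was called (1.61%). At an unadjusted p under 0.05 the window held 11 genes, or 17.7% against 11.3% of all genes, 3 with positive and 8 with negative fold changes. Within 10 Mb, 150 genes were tested. Of these, edgeR called 2 (1.33%, against 0.0108% of all genes) and DESeq2 called 5 (3.33%, against 0.593% of all genes). There, 24 (16%) had an unadjusted p under 0.05, 7 positive and 17 negative. Over the whole chromosome the share at that unadjusted threshold was 11.8% of 602 genes. The libraries did not overlap for 12.7% of genes within 10 Mb and 8.95% of all genes.

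Some of these neighbours are described next; all were chosen after their values were seen. Ide, insulin-degrading enzyme, starts 2.79 Mb from Ch25h. It had 40.2, 39.4, 35.5 and 40.7 CPM in CKO, against 39.2, 75.5, 76.4 and 65.2 CPM in WT. WT replicate 1 thus sat with the CKO libraries, and the other 3 WT libraries were clearly above them. Over all libraries its log2 fold change was −0.72 ± 0.15 (SE; edgeR adjusted p = 0.17), and without WT replicate 1 it was −0.89 (adjusted p = 0.00128). The transgenic libraries lay at 33.7 to 38.8 CPM in TCKO and 41.1 to 44.5 CPM in T.

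Pi4k2a, a phosphatidylinositol kinase, starts 7.62 Mb from Ch25h and close to Golga7b. It had 30.7, 30.5, 31.7 and 26.1 CPM in CKO and 45.6, 47.7, 44.0 and 44.7 CPM in WT, with no overlap (−0.61 ± 0.14; edgeR adjusted p = 0.195, DESeq2 adjusted p = 0.0129). In the transgenic libraries it had 25.8, 25.1, 43.5 and 28.6 CPM in TCKO and 36.2 to 42.5 CPM in T. Here too TCKO replicate 4 was the library that sat apart from the other 3 of its group. Gm34299, an antisense gene model 7.94 Mb from Ch25h without a known role, ran the other way at a low level. It had 0.9, 1.68, 1.11 and 0.661 CPM in CKO and 0.0645, 0.178, 0 and 0.141 CPM in WT (DESeq2 adjusted p = 0.00351, edgeR adjusted p = 0.179). For this gene TCKO replicate 4, at 0.482 CPM, again lay within the T range of 0.0636 to 0.511 CPM, and the other TCKO libraries had 1.36 to 3.08 CPM. Not all neighbours without overlap between CKO and WT kept their sign in the transgenic libraries. Marveld1, 7.67 Mb from Ch25h, had a log2 fold change of 0.71 in CKO minus WT and −0.36 in TCKO minus T. R3hcc1l, 8.045 Mb away, had −0.33 and 0.08, whereas Aldh18a1, 6.08 Mb away, kept its sign at −0.45 and −0.22. The genotype of each mouse along this chromosome was not analysed here.

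**Figure D2:**
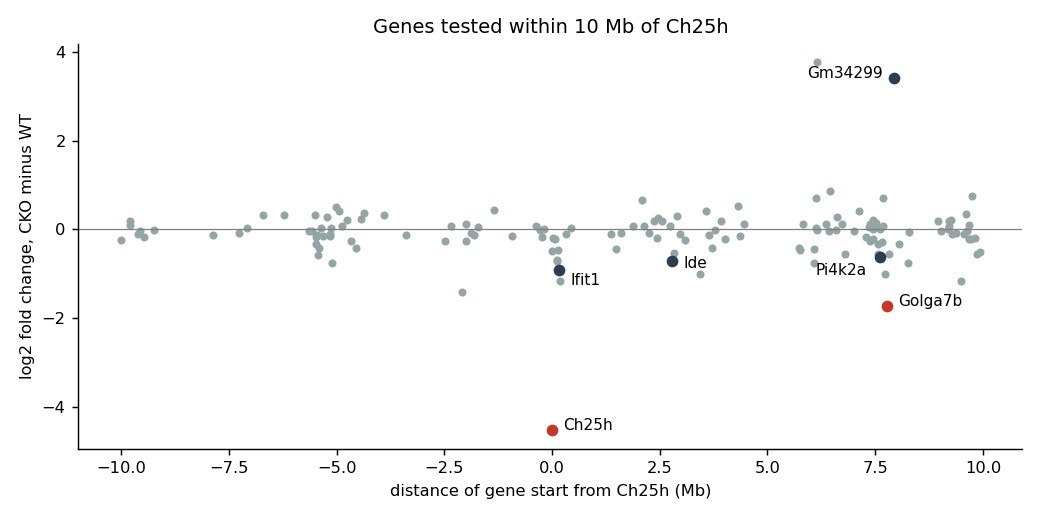
Log2 fold change, CKO minus WT, of the 150 genes tested within 10 Mb of Ch25h against the distance of their start from Ch25h in Mb; red points passed the edgeR test and dark points are named in the text. Ch25h lies at −4.53 and Golga7b, 7.77 Mb away, at −1.73, and most other genes lie close to 0.

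The 10 named genes next in order of p were Smco3, Mdga1, mt-Atp8, mt-Nd4l, Lrrc17, Zcchc7, Srek1, Tspan4, Leng8 and Arntl. Gene models without a name of their own, pseudogenes and ribosomal protein genes were left out of this order, whatever their p. They were chosen by their values in this comparison and so describe it and support nothing. None passed edgeR's threshold (adjusted p = 0.0748 to 0.16), and each passed that of DESeq2. Mdga1 and Arntl had positive fold changes in both backgrounds. Mdga1, a cell-surface protein that restrains synapse formation by neuroligins, had 18.2, 18.2, 19.6 and 17.8 CPM in CKO and 8.9, 9.57, 13.5 and 9.39 CPM in WT (0.84 ± 0.14). It had 13 to 17 CPM in TCKO and 6.94 to 9.34 CPM in T, a difference of 0.99 that edgeR called there (adjusted p = 0.000244). Knockout libraries were thus above libraries with intact Ch25h in both backgrounds, apart from TCKO replicate 3, which was under WT replicate 4.

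Arntl, the clock transcription factor also named BMAL1, had 25.3, 22.0, 22.4 and 23.2 CPM in CKO and 14.2, 16.6, 15.9 and 13 CPM in WT (0.64 ± 0.13). In the transgenic libraries it had 23.2 to 29.2 CPM in TCKO and 13.5 to 19.7 CPM in T (0.67; adjusted p = 0.00253). Of the 16 core clock genes, edgeR called none; 1 had an unadjusted p under 0.05 in the positive and 2 in the negative direction, DESeq2 called Arntl alone, and limma voom called none. The labels give no time of day for the dissection. Tspan4, a tetraspanin, had 7.94, 11.5, 9.75 and 12.8 CPM in CKO and 24.6, 22.4, 17.9 and 20.5 CPM in WT (−1.02 ± 0.20). It was also lower in TCKO than in T, at 15.4 to 21.8 against 43.7 to 80.0 CPM (−1.51; adjusted p = 0.000114).

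Smco3 and Zcchc7 had larger differences between CKO and WT than between TCKO and T, and the difference between both effects was called. Both genes were chosen by their CKO and WT libraries, which that contrast includes. The choice favours such a call, which is therefore no support for an effect of background. Smco3, a small membrane protein, had 20.6, 19.3, 20.8 and 20.5 CPM in CKO and 31.6, 31.3, 35.8 and 34.4 CPM in WT (−0.71 ± 0.12), against 22.7 to 29.3 CPM in TCKO and 20.7 to 29.6 CPM in T; the difference of effects was 0.76 (adjusted p = 0.0185). Zcchc7, a zinc-knuckle protein of nuclear RNA decay, had 34.8, 27.8, 30.2 and 27.5 CPM in CKO and 21.5, 16.6, 19.1 and 14.6 CPM in WT (0.74 ± 0.14), with a difference of effects of −0.86 (adjusted p = 0.0264). For Zcchc7 and for Srek1, a splicing regulator, the CKO libraries were the highest of all 16, whereas for Smco3 and Lrrc17, a secreted leucine-rich protein, the WT libraries were. Lrrc17 had 20.1, 19.1, 22.8 and 21.6 CPM in CKO and 56.2, 44.1, 32.9 and 59.9 CPM in WT (−1.21 ± 0.23). Leng8 had 8.26 to 15.5 CPM in CKO and 5.5 to 8.26 CPM in WT (0.91 ± 0.18).

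Of the 110 genes DESeq2 called, 98 had libraries that did not overlap, against 8.95% of all genes. The same libraries chose the 110, which favours such separation. In TCKO against T, 71 of the 110 (64.5%) had the same sign, as did 54.6% of all genes tested. EdgeR called 10 of them there, or 9.09%, which is no more than the 12.9% of all genes called. All 10 had the same direction in both comparisons, as did 64.7% of all genes called there. Those 10 were Abcc5, Arntl, Cd3e, Ch25h, Cped1, Crispld2, Ddah2, Gm34299, Mdga1 and Tspan4. For 19 of the 110 (17.3%, against 3.15% of all genes) the difference between both knockout effects was called, a contrast that includes the libraries that chose these genes.

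**Figure D3:**
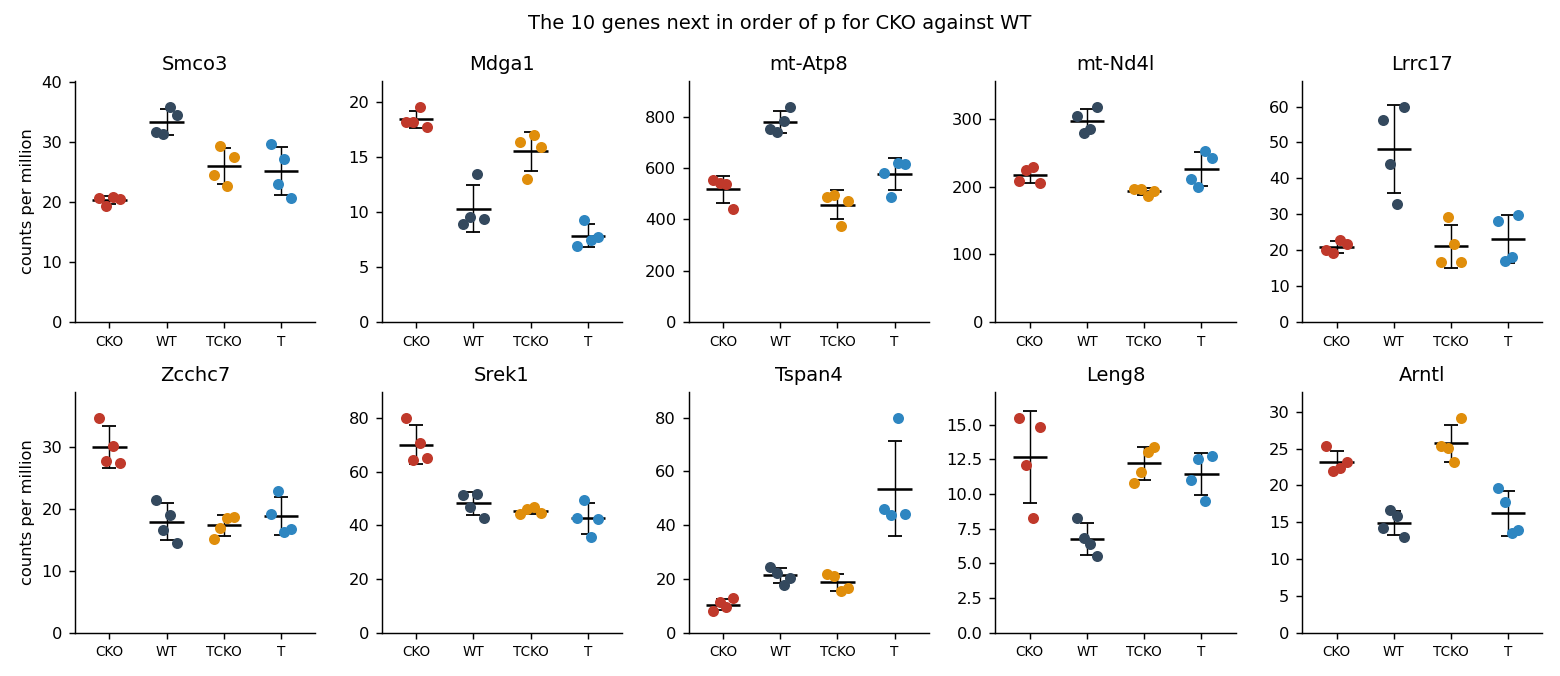
CPM of the 10 named genes next in order of p, one panel each, in CKO, WT, TCKO and T. Unnamed gene models, pseudogenes and ribosomal protein genes were left out of the order. Points are libraries, bars the mean with the SD, n = 4 each. For Mdga1, Arntl and Tspan4 the knockout groups differ from their controls in the same direction in both backgrounds; for Smco3 and Lrrc17 the WT libraries lie above the other 12.

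The genes that make, clear, sense and move 25-hydroxycholesterol showed little beyond Ch25h itself. Of 21 tested, edgeR called Ch25h alone and DESeq2 the same gene; 1 other gene, Gramd1b, had an unadjusted p under 0.05. The median log2 fold change was 0.00, against −0.01 over all genes. The other sterol hydroxylases were not called. Cyp27a1 averaged 1.42 CPM in CKO and 2.2 CPM in WT (−0.63 ± 0.33; adjusted p = 0.494), and Cyp46a1, the neuronal 24-hydroxylase, 50.4 CPM in CKO and 57.4 CPM in WT (−0.18 ± 0.30). Enzymes that act on 25-hydroxycholesterol were likewise not called. Cyp7b1, which hydroxylates it further, averaged 37.9 CPM in CKO and 31.6 CPM in WT (0.26 ± 0.19), with libraries overlapping at 31.8 to 48.5 and 23.7 to 40.4 CPM. Hsd3b7, the next enzyme of that route, gave −0.21 ± 0.20, Cyp39a1, another oxysterol hydroxylase, 0.04 ± 0.27 and Sult2b1, which sulfates oxysterols, −0.18 ± 0.24.

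The receptors were not called. Gpr183 had 3.72, 2.67, 2.47 and 2.97 CPM in CKO and 2.77, 4.77, 4.32 and 2.58 CPM in WT (−0.28 ± 0.26; adjusted p = 0.725), against −1.24 between TCKO and T (adjusted p = 0.00379); the difference of effects did not pass (adjusted p = 0.159). The liver X receptor genes Nr1h2 and Nr1h3 gave 0.00 ± 0.14 and 0.27 ± 0.24, their partner Rxra −0.43 ± 0.20 and the sterol-binding receptor gene Rora 0.03 ± 0.34. The SREBP genes Srebf1 and Srebf2 gave −0.06 ± 0.20 and 0.06 ± 0.11, and their escort Scap 0.02 ± 0.16. Of the retention proteins, Insig2 gave 0.07 ± 0.13. Insig1, itself an SREBP target, had 71.3, 79.0, 70.5 and 75.9 CPM in CKO and 97.2, 82.2, 81.4 and 78.9 CPM in WT (−0.19 ± 0.11; adjusted p = 0.521). Its difference from TCKO against T, where it was higher by 0.73, was 0.93 (adjusted p = 0.00508). Of the sterol carriers, Osbp gave 0.08 ± 0.14, Npc1 −0.03 ± 0.18 and Gramd1b 0.29 ± 0.11 (unadjusted p = 0.0212, adjusted p = 0.378). Gramd1b had 54.2 to 64.3 CPM in CKO and 45 to 49.8 CPM in WT, without overlap. Soat1, the enzyme that esterifies cholesterol, gave 0.04 ± 0.12.

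Cholesterol synthesis and uptake genes did not stand higher in CKO, and most had slightly negative fold changes. Of 24 tested, edgeR, DESeq2 and limma voom called none. At an unadjusted p under 0.05 there were 8, all 8 negative, where all genes gave 5.45% negative and 5.86% positive. Those shares are the base for every list count at that threshold. For list counts by DESeq2 the base is the 0.593% of all genes that it called. Of the 24 genes 21 were negative, against 9711 of all 18565, with a median of −0.24 against −0.01 over all genes. Sqle, squalene epoxidase, had 46.7, 54.6, 49.2 and 62.9 CPM in CKO and 82.7, 58.0, 54.2 and 84.0 CPM in WT (−0.39 ± 0.18; adjusted p = 0.427). Of genes chosen after their values were seen, Hmgcs1, whose promoter is shown above, averaged 262 CPM in CKO and 287 CPM in WT (−0.13 ± 0.16), and Fdft1, squalene synthase, 119 CPM in CKO and 155 CPM in WT (−0.37 ± 0.15; adjusted p = 0.383).

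In each of these 3 genes WT replicates 1 and 5 were the highest WT libraries. The same libraries had the least myelin RNA. The summed level of 15 oligodendrocyte and myelin genes was 9299, 8631, 8787 and 5550 CPM in CKO replicates 1, 2, 4 and 5, and 5055, 13913, 16346 and 3735 CPM in WT replicates 1, 2, 4 and 5. The summed level of the 24 sterol genes was 1369, 1473, 1375 and 1586 CPM in the same CKO libraries and 1897, 1433, 1500.1 and 1886 CPM in the same WT libraries. CKO replicate 5, the CKO library with the least myelin RNA, also had the highest sterol sum of its group. None of the 15 myelin genes was called by edgeR, DESeq2 or limma voom or had an unadjusted p under 0.05. Their median was −0.19, and −0.45 to 0.12 over the alternative fits, those with 1 library left out among them. In bulk tissue, fewer cells of a type and less RNA per cell cannot be told apart, and the part of myelin content in the sterol values was not tested.

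In the transgenic libraries the difference ran the other way for these genes. The summed level of the 24 sterol genes was 1304 to 1636 CPM in TCKO and 799 to 1067 CPM in T. It was 1369 to 1586 CPM in CKO and 1433 to 1897 CPM in WT, so the T libraries were under those of all other groups. Of the same 24 genes, edgeR called 19 higher in TCKO than in T, with a median of 0.64, and for 15 the difference between both knockout effects was called, all 15 positive. Over all genes, 12.9% were called for TCKO against T in either direction and 3.15% for the difference of effects. Those shares are the base for every list count of that kind. The difference of effects was 1.26 ± 0.25 for Sqle (adjusted p = 0.012), 1.27 ± 0.23 for Hmgcs1 (adjusted p = 0.00717) and 1.23 ± 0.22 for Fdft1 (adjusted p = 0.00611). Fdft1 had the smallest p of its list in CKO against WT, which that contrast includes, so its choice favours such a call.

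Targets of the liver X receptors were not called either: 0 of 18 by edgeR, DESeq2 or limma voom, 4 at an unadjusted p under 0.05, all negative, and a median of −0.11. Of the 18 genes 12 were negative and 6 positive. Their summed level was 4638 to 5479.8 CPM in CKO and 5613 to 6568 CPM in WT, without overlap. Scd1, a fatty acid desaturase under control of SREBP and liver X receptors and chosen after its values were seen, had 75.1, 90.3, 80.3 and 80.6 CPM in CKO and 119, 139, 116 and 90.9 CPM in WT. All CKO libraries were under all WT libraries, by a narrow margin for WT replicate 5 (−0.51 ± 0.19; adjusted p = 0.363). In TCKO against T it was higher by 0.72, and the difference of effects was 1.23 (adjusted p = 0.0182). That contrast includes the CKO and WT libraries by which Scd1 was chosen, and the choice favours such a call. Apoe, the main sterol carrier of the brain, averaged 1847 CPM in CKO and 2338 CPM in WT (−0.34 ± 0.18; adjusted p = 0.494). Of 19 fatty acid synthesis and desaturation genes edgeR, DESeq2 and limma voom called none, with 1 positive and 2 negative at an unadjusted p under 0.05.

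No interferon, complement or microglial gene of the lists was called in CKO against WT by edgeR, DESeq2 or limma voom. Of 24 interferon-stimulated genes edgeR, DESeq2 and limma voom called none in CKO against WT, and 2 had an unadjusted p under 0.05, as did 11.3% of all genes. The median was −0.31, but single libraries moved it from −0.59 without CKO replicate 4 to −0.11 without WT replicate 1. The summed level ran from 122 to 269.6 CPM in CKO and from 143 to 273 CPM in WT. Ifit1, an antiviral protein gene that starts 0.17 Mb from Ch25h, had 3.77, 7.62, 14.5 and 3.34 CPM in CKO and 22.6, 12.5, 13 and 5.86 CPM in WT, with overlap (−0.92 ± 0.47; adjusted p = 0.475). Isg15, a ubiquitin-like modifier, had 1.27, 3.7, 4.88 and 2.02 CPM in CKO and 2.23, 4.18, 1.58 and 1.45 CPM in WT (0.29 ± 0.42; adjusted p = 0.835). In the transgenic libraries all 24 were called lower in TCKO than in T, with summed levels of 138 to 318 CPM in TCKO and 1137 to 1849 CPM in T. For 21 of the 24 the difference between both knockout effects was called, which for Isg15 was −4.13 (adjusted p = 0.00245).

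Among 19 complement and antigen presentation genes, edgeR, DESeq2 and limma voom called none. An unadjusted p under 0.05 was found for 5, all negative, as for 5.45% of all genes. Their median was −0.23, and −0.40 to −0.07 over the alternative fits, those with 1 library left out among them. C1qa, a subunit of complement C1q made by microglia, had 23.5, 22.8, 22.7 and 26.3 CPM in CKO and 18.6, 28.0, 29.9 and 21.6 CPM in WT (−0.04 ± 0.18, 95% interval −0.43 to 0.35). H2-Aa, a class II antigen presentation gene picked for its small p, had 0.246, 1.51, 1.37 and 0.551 CPM in CKO and 5.9, 4.15, 2.77 and 1.73 CPM in WT (−2.05 ± 0.60; adjusted p = 0.309). Its groups did not overlap, though CKO replicate 2 and WT replicate 5 were close. None of the 16 homeostatic and none of the 24 disease-associated microglia genes was called by edgeR, DESeq2 or limma voom or had an unadjusted p under 0.05 (medians −0.08 and −0.21). P2ry12, a purinergic receptor of resting microglia, averaged 107 CPM in CKO and 113 CPM in WT (−0.08 ± 0.13), and Trem2, a lipid-sensing microglial receptor, 13.9 CPM in CKO and 16.5 CPM in WT (−0.24 ± 0.25). For both genes the libraries overlapped, and the microglial markers were present in all 8 libraries. In TCKO against T, 21 of the 24 disease-associated genes were called lower, and the difference of effects was called for 14 of them.

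**Figure D4:**
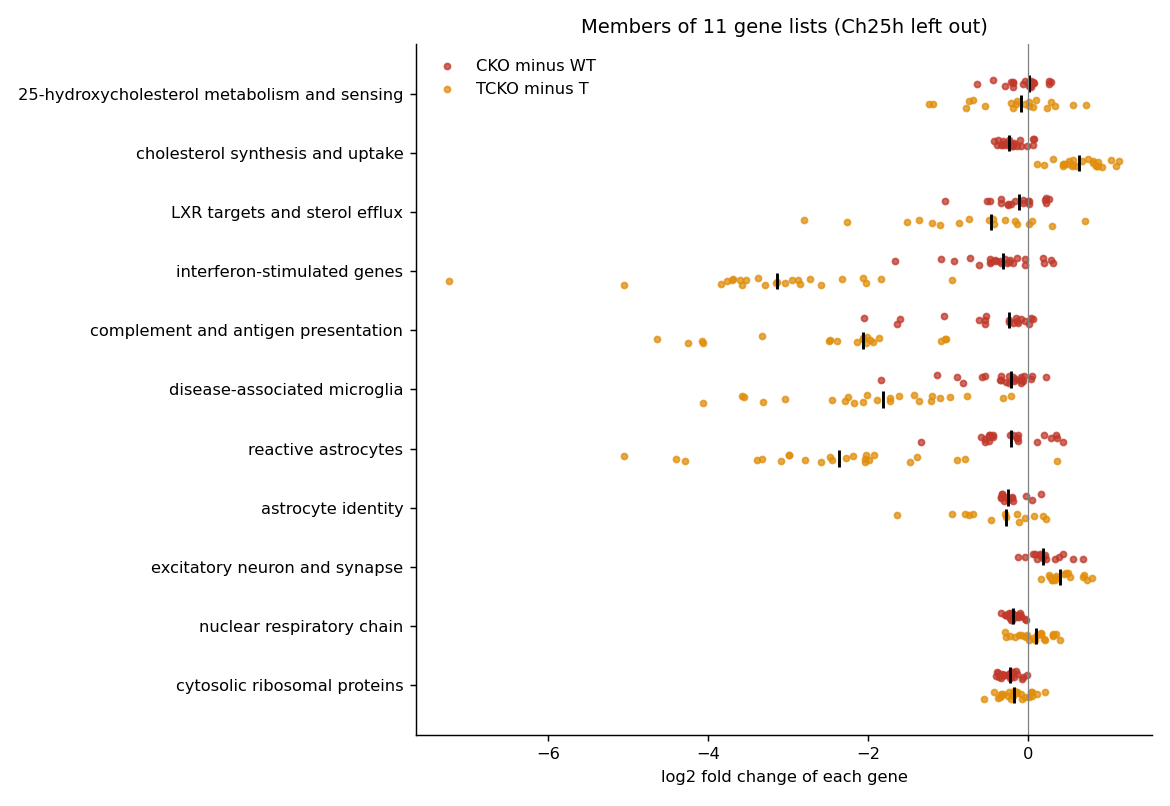
Log2 fold change of each member of 11 gene lists for CKO minus WT (red) and TCKO minus T (orange); each point is a gene and black ticks are medians, with Ch25h left out. For CKO minus WT the medians lie between −0.31 and 0.19, whereas for TCKO minus T the interferon list lies at −3.14 and the cholesterol synthesis list at 0.64.

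Most excitatory neuron genes had positive and most astrocyte identity genes negative fold changes, without a call, and inhibitory neuron genes did not share the positive sign. Of 12 inhibitory neuron genes, 9 had negative fold changes (median −0.05) and 1 an unadjusted p under 0.05, and edgeR, DESeq2 and limma voom called 0. Of 16 excitatory neuron and synapse genes, 14 had positive fold changes and 3 an unadjusted p under 0.05, all positive, with a median of 0.19; edgeR, DESeq2 and limma voom called 0. Grin2a and Grin2b, NMDA receptor subunits picked for their small p, had 558, 490.4, 549 and 415 CPM in CKO against 255, 309, 403 and 277 CPM in WT (0.69 ± 0.21; adjusted p = 0.311), and 279 to 353 CPM in CKO against 219 to 257 CPM in WT (0.44 ± 0.14). Neither pair of groups overlapped. Nptx1, a pentraxin that clusters AMPA receptors, gave 0.51 ± 0.17, and Egr3, an activity-induced transcription factor, 0.53 ± 0.16, also with no overlap and not called. Each was picked for the smallest p in another list. Of 20 hippocampal subfield neuron genes, the list of Nptx1, 15 had positive and 5 negative fold changes (median 0.23). Of 16 immediate early genes, the list of Egr3, 9 were positive and 7 negative (median 0.11). Their summed levels overlapped, at 429 to 883 CPM in CKO and 353 to 651 CPM in WT. Egr3 was called higher in TCKO than in T (0.99; adjusted p = 0.000558), and the difference of effects did not pass (adjusted p = 0.289). The summed level of the excitatory genes was 12836 to 13894 CPM in CKO and 10694 to 12419.8 CPM in WT, without overlap.

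Of 14 astrocyte identity genes, 12 had negative fold changes and 5 an unadjusted p under 0.05, all negative (median −0.25); edgeR, DESeq2 and limma voom called 0. Aldoc, a glycolytic enzyme of astrocytes, had 1516, 1764, 1443 and 1652 CPM in CKO and 2015, 1873, 1721 and 2445 CPM in WT (−0.34 ± 0.13; adjusted p = 0.369). Gfap, the intermediate filament of reactive astrocytes, had 465, 474, 455 and 475 CPM in CKO and 483, 797, 785 and 504 CPM in WT (−0.46 ± 0.32; adjusted p = 0.61). The CKO libraries were tightly grouped, and the WT libraries fell into 2 that were near CKO, replicates 1 and 5, and 2 that were higher, replicates 2 and 4, the same split as for myelin RNA. Of 24 reactive astrocyte genes edgeR, DESeq2 and limma voom called 0, and 2 had an unadjusted p under 0.05. Lysosomal genes were negative in 18 of 18 (median −0.15, 4 at an unadjusted p under 0.05), again with 0 calls by edgeR, DESeq2 and limma voom.

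Energy and translation genes were uniform in sign. All 13 mitochondrially encoded genes had negative fold changes (median −0.34), 11 of them with an unadjusted p under 0.05; edgeR and limma voom called 0 and DESeq2 called 4. mt-Atp8, a subunit of ATP synthase, had 553, 540.1, 537 and 439 CPM in CKO and 752, 742, 782 and 838 CPM in WT (−0.59 ± 0.11; edgeR adjusted p = 0.123). mt-Nd4l, a subunit of complex I, had 206 to 229 CPM in CKO and 279 to 318 CPM in WT (−0.45 ± 0.08). The WT libraries were the highest of the 16 for both genes. All 24 nuclear respiratory chain genes were negative (median −0.19, 9 at an unadjusted p under 0.05, 0 called by edgeR and limma voom, 2 by DESeq2). Uqcrc1, a core protein of complex III, had 403 to 483 CPM in CKO and 515 to 623 CPM in WT (−0.34 ± 0.09), and its difference of effects was 0.55 (adjusted p = 0.0213). It was picked for the smallest p of its list in CKO against WT, which that contrast includes. The choice favours such a call, which is therefore no support for an effect of background. All 24 cytosolic ribosomal protein genes were negative too (median −0.22, 15 at an unadjusted p under 0.05, 0 called by edgeR and limma voom, 3 by DESeq2), among them Rps21 with 106 to 136 CPM in CKO and 148 to 159.9 CPM in WT.

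The libraries differed in depth and RNA makeup along with genotype. CKO libraries held 15064258 to 26417485 reads and WT libraries 28878584 to 34348225 reads, without overlap (two-sided exact permutation p = 0.0286, the smallest that 4 against 4 libraries allow; 0.0429 after Benjamini-Hochberg adjustment over the 3 measures tested). Mitochondrial reads made up 7.61 ± 0.742% in CKO and 9.19 ± 0.536% in WT (SD, n = 4 each; exact permutation p = 0.0571, adjusted p = 0.0571). The 10 most abundant genes held 9.92 ± 0.5% of reads in CKO and 11.3 ± 0.399% in WT (SD, n = 4 each; exact permutation p = 0.0286, adjusted p = 0.0429).

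Short transcripts had lower and long ones higher fold changes. Over 6 bins of effective length the median ran from −0.11 in the shortest (955 bases or less) to 0.09 in the longest (3980 bases or more). In the shortest bin 85 genes were positive and 325 negative at an unadjusted p under 0.05, and in the longest 340 and 84. The effective length averaged over reads was 1832 to 1876 bases in CKO and 1748 to 1787 bases in WT. It was 1797 to 1837 bases in TCKO and 1667 to 1760 bases in T, again without overlap. Gene models of the class TEC, unspliced predictions that await experimental follow-up, had a median of 0.85 over 761 tested models. At an unadjusted p under 0.05, 237 were positive and 2 negative; edgeR called 0 and DESeq2 called 14, all higher. Of the 761 models, 484 (63.6%) lie inside a protein-coding gene on the same strand, and their median was 1.07. TEC reads made up 0.197 to 0.274% of reads in CKO and 0.102 to 0.18% in WT. They made up 0.124 to 0.179% in TCKO (mean 0.142%) and 0.114 to 0.216% in T (mean 0.15%). T replicate 3, at 0.216%, lay within the CKO range. The part of these measures in the mitochondrial, ribosomal and excitatory neuron values was not tested. With effective length as an offset, the median was 0.21 for excitatory neuron genes, −0.19 for ribosomal proteins and −0.36 for mitochondrially encoded genes. That offset corrects only for differences in the length of the same gene between libraries. It cannot address a trend between short and long genes, so these medians say nothing about that trend.

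**Figure D5:**
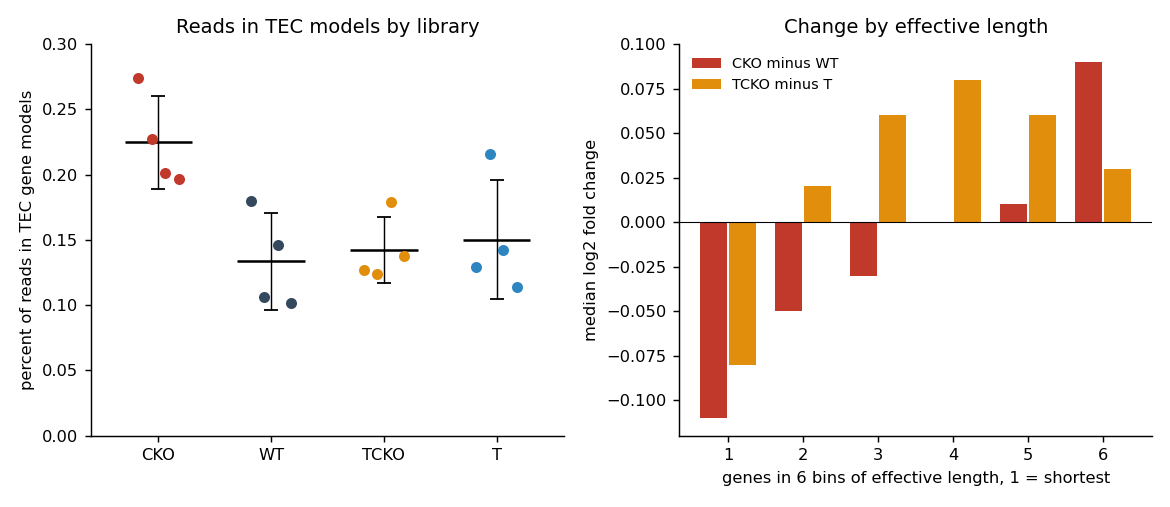
Left, percent of reads in TEC gene models per library in CKO, WT, TCKO and T, with the mean and SD (n = 4 each); right, median log2 fold change in 6 bins of effective length for CKO minus WT and TCKO minus T. The CKO libraries lie at 0.197 to 0.274% and above the WT libraries, and for CKO minus WT the medians climb from −0.11 to 0.09.

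Markers of tissue next to the hippocampus varied by library. The summed level of 15 choroid plexus genes was 237 to 423 CPM in CKO and 161 to 596 CPM in WT replicates 2, 4 and 5, but 11642 CPM in WT replicate 1. Ttr, the transport protein of that tissue, had 45.8, 9.48, 89.3 and 25.2 CPM in CKO and 6837, 119, 83.3 and 8.54 CPM in WT. The list's median of −3.55, with 12 of 15 at an unadjusted p under 0.05, was −0.63 once WT replicate 1 and the equally rich T replicate 4 were left out; edgeR, DESeq2 and limma voom called 0 members. Without those libraries edgeR called 8 genes, Ch25h, Golga7b, Ide and 5 gene models without a name of their own that were higher. Of 12 meningeal and fibroblast genes edgeR and limma voom called 0 and DESeq2 called 1, with a median of −0.74 and summed levels of 639 to 1491 CPM in CKO and 1316 to 1885 CPM in WT. T cell genes were near the floor, summing to 2.99 to 6.63 CPM in CKO and 4.73 to 6.94 CPM in WT over 14 genes; Cd3d was at 0 in every CKO library, and Cd3e, called by DESeq2 (adjusted p = 0.0369), was at 0 in 3 of 4 CKO libraries.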

How the data were processed

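RNA of the right hippocampus was measured in 16 libraries, per the labels' protocols with a SMARTer Ultra Low kit primed by oligo-dT. The authors deposited estimated counts per gene (expected counts, 74.53% of those above 0 whole); per the file headers, their per-library files also hold TPM and effective lengths under salmon's column names. STAR 2.5.1a, Subread, featureCounts 1.4.6-p5, bcl2fastq and GRCm38 are named, without roles, in the submitters' processing notes; the quantifier and annotation are not given in the sources used here. Of 55774 lines, 287 repeated a gene, leaving 55487 genes. Coordinates came from GENCODE annotation of GRCm38 and promoters from RefSeq (GRCm38.p6).

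Expected counts were rounded and tested with edgeR 4.0.16 (R 4.3.3): TMM scaling, filterByExpr, and a quasi-likelihood fit with 1 mean for each genotype that used all 16 libraries; p-values were adjusted by Benjamini and Hochberg's method and called under 0.05. The contrasts were CKO minus WT, TCKO minus T and their difference (the interaction). CPM are TMM-scaled counts per 1000000. DESeq2 1.42.0 (adjusted p not given for 397 genes) and limma voom 3.58.1 were alternatives, beside other scalings, filters, thinning to the smallest library, an effective length offset, a replicate block and leaving out each CKO and WT library. The fit was tested on simulated data. CKO libraries held 15064258 to 26417485 counts and WT libraries 28878584 to 34348225; 3 counts correspond to 0.114 to 0.199 CPM in CKO and 0.0873 to 0.104 CPM in WT.

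The rule for named genes took Ch25h, called genes and every measured gene of 25-hydroxycholesterol handling with Sqle (some genes of the rule are not reported here); other genes were chosen after values were seen. Members and lists were chosen with earlier results of these data known. Genes that share reads with near-identical copies, and antisense models such as Gm34299, are uncertain, since the kit does not mark strand.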

Additional observations from a re-analysis of the deposited data

Results flagged for a closer look

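In 192 groups of 4 libraries (58 named genes, the summed gene lists and the library measures), 10 held a library far from the other 3, and chance alone gives about 1 in 20 such groups. WT replicate 1 stood apart for choroid plexus genes, which summed to 11642 CPM, for Ttr (6837 CPM) and for Soat1 (54.8 CPM). WT replicate 4 stood apart for Mdga1 (13.5 CPM) and for the unfolded protein and stress response genes, which summed to 1143 CPM. CKO replicate 4, the shallowest library, stood apart for Cd3e (0.065 CPM), for heat shock and chaperone genes (summed to 11209 CPM) and for nuclear respiratory chain genes (summed to 9229.8 CPM). CKO replicate 2 stood apart for Sult2b1 (16.5 CPM) and CKO replicate 5 for mt-Atp8 (439 CPM). Leaving out WT replicate 4 moved the log2 fold change of Mdga1 to 0.99 and its edgeR adjusted p to 0.0262.

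For 14 of the 58 named genes the knockout effect differed between the backgrounds, TCKO minus T less CKO minus WT, at an edgeR adjusted interaction p under 0.05. Over all genes tested that share was 3.15%. Named genes outside the rule were chosen after values were seen, so the count is no result about the named genes as a set. Sterol and fatty acid synthesis genes and Insig1 had positive differences: 1.27 for Hmgcs1, 1.26 for Sqle, 1.23 for Fdft1, 1.23 for Scd1 and 0.93 for Insig1. The sterol-esterifying enzyme gene Soat1, the lipid carrier gene Apoe and the immune genes had negative differences, −4.13 for Isg15, −2.84 for Ifit1, −2.45 for C1qa, −1.93 for Trem2, −1.02 for Apoe and −0.72 for Soat1. The remaining differences were 0.76 for Smco3, −0.86 for Zcchc7 and 0.55 for Uqcrc1. Fdft1, Scd1, Smco3, Zcchc7 and Uqcrc1 were picked by their CKO and WT values, which the contrast includes. That choice favours a call for these genes. CKO minus WT itself was not called for any of these 14 by edgeR (unadjusted p under 0.05 for Sqle, Fdft1, Scd1, Smco3, Zcchc7 and Uqcrc1; DESeq2 called Smco3, Zcchc7 and Uqcrc1).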

How the results depend on the processing

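The 2 calls (both lower, 0 higher) were also 2 with RLE and upper quartile scaling, the filter of 1 CPM in 4 libraries, the effective length offset and mitochondrial genes left out, and were 3 without a filter on low counts. Limma voom, the fit of only the 8 libraries and thinning each called 1 gene, lower, with 0 called near Ch25h and 1 in the same direction in TCKO against T. DESeq2 called 110, 55 higher and 55 lower, of which 72 had the same sign in TCKO against T by DESeq2, 2 near Ch25h, and 1250 interactions. Leaving out the choroid-rich WT replicate 1 and T replicate 4, an alternative chosen after seeing the data, gave 8 calls, 5 higher, 4 in the same direction in TCKO against T, 2 near Ch25h and 378 interactions. Leaving out 1 library gave 0 to 7 calls, 0 to 4 higher and 0 to 3 lower, 0 to 4 in the same direction in TCKO against T, 0 to 2 near Ch25h and 308 to 586 interactions; without WT replicate 1 the 7 included Ide and 4 unnamed models. Whether CKO and WT replicate numbers pair the libraries could not be told. Libraries of the same number had correlations of −0.09 to 0.36, 2 of 4 over 0.1, and 2 of 4 CKO libraries correlated best with their own number. With the replicate block the counts were 0 called, 0 lower, 0 in the same direction and 0 near Ch25h, with 2175 genes at an unadjusted p under 0.05. Near Ch25h, the count was 2 within 10 Mb and 0 with Ch25h left out.

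Signs of uncalled genes turned as follows. Thinning gave −0.15 for Cyp39a1, −0.04 for Scap and 0.02 for Golga7. The length offset gave −0.05 for Soat1, 0.02 for Npc1 and 0.01 for C1qa. Limma voom gave −0.01 and the block −0.04 for Rora. Without the choroid-rich libraries Cyp39a1 gave −0.03 and Scap −0.08. Leaving out 1 library gave −0.12 to 0.24 for Cyp39a1, −0.10 to 0.09 for Scap, −0.14 to 0.10 for Npc1, −0.16 to 0.06 for C1qa, −0.21 to 0.13 for Rora, −0.11 to 0.07 for Golga7, −0.55 to 0.01 for Cyp46a1, −0.19 to 0.08 for Srebf1 and −0.03 to 0.72 for Isg15. Over all alternatives, list medians ran from −0.31 to −0.18 for cholesterol synthesis, −0.59 to −0.11 for interferon, −0.40 to −0.07 for complement, −0.33 to −0.12 for disease-associated microglia, −0.34 to −0.04 for reactive astrocytes, −0.45 to 0.12 for myelin, −0.18 to 0.03 for inhibitory neurons, 0.12 to 0.24 for excitatory neurons, 0.11 to 0.52 for subfield neurons, −1.13 to −0.50 for meninges and −3.94 to −0.52 for choroid plexus genes. The cause of each change was not tested. The Ch25h values rest on 103 WT reads and 3 CKO reads.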
